A study of Mus musculus with 48 samples.

Results

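The comparison set the 2 nuclear exclusion lines of a Huntington's disease mouse study, A61 and A39, against each other. Each line's effect was its transgenic animals minus its own controls, and the quantity tested was the A61 effect at 8 months minus the A39 effect at 4 months. It used 16 of the 48 arrays in the series. The 16 were 4 A61 transgenic and 4 A61 control animals at 8 months, and 4 A39 transgenic and 4 A39 control animals at 4 months. Members were taken by their labels, and the A61 controls by a description naming them A61 wild type. Both transgenic groups carried exon 1 of the Huntington's disease gene Htt with 142 glutamine codons, joined to a nuclear exclusion signal. The controls were nontransgenic, and the series design calls them littermates. RNA of the cerebellum was measured from 1 animal per array on Affymetrix MG-U74Av2 arrays. The profiles belong to the age at which a rotarod deficit first appeared. The A39 groups held 2 females and 2 males (transgenic) and 3 females and 1 male (control), and the A61 groups held 4 males (transgenic) and 3 males and 1 female (control). The arrays did not measure the location of the protein, and the promoter driving the transgene is not given in the sources used here.

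An expanded glutamine tract makes huntingtin fragments prone to aggregate, and a nuclear exclusion signal is meant to keep the fragment outside the nucleus. A line of transgenic mice descends from a founder with its own insertion site and copy number, so lines with the same construct can differ in onset and severity. Purkinje cells are the output neurons of the cerebellar cortex. They are inhibitory, are rich in calcium-handling proteins and are few beside the granule cells, so whole-tissue RNA reads them mainly through genes they alone express strongly. In such tissue fewer cells of a type and less RNA per cell cannot be told apart.

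Several arrays had features that bear on the results. All 8 A61 arrays were scanned on 1 day and 7 of the 8 A39 arrays on another, so that scan day, age and line cannot be told apart for any level set between the lines, while each line's own effect lay within a day apart from 1 array. That array, A39 control 2, was scanned on a further day with another chip lot, and its animal identifier also stood on a control array of another line in the series. Results that rest on it are given with and without it. Titles named 3 of the 4 A61 controls as A39 controls, against their descriptions. A39 control 4 and A61 control 4 had the lowest mean correlations with the other arrays, 0.910 and 0.927, and the highest median signals, 263.6 and 261.5. Across the 16 arrays the median signal ran from 204.1 upwards and the Gapdh 3' over 5' ratio from 0.967 to 1.12. The beta-actin 3' over 5' ratio spread more widely, from 1.222 in A61 transgenic 2 to 1.803 in A39 transgenic 4. A61 control 4 had the next highest, 1.559. The number of arrays limits the precision: the median SE of a line's effect was 0.17 on the log2 scale, and that of the difference between lines was 0.23. Endogenous Htt was read by a pair of probe sets, and neither passed the test in either line. Their log2 effects were 0.23 and 0.02 in A61 and 0.02 and -0.09 in A39.

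Rgs8, Homer3, Calb1 and Fam107b fell in both lines to between 41.3% and 74.4% of control, with values further from 0 in A39, while Marcks rose in both to 226% and 269% of control. No single gene's change was shown to differ between the lines. At an adjusted p of 0.05 (limma, Benjamini-Hochberg over 7453 probe sets), 19 probe sets changed in A61, 4 up and 15 down, which was 0.255% of those tested. In A39 118 changed, 34 up and 84 down, or 1.58%. The mean of the effects in A61 and A39, which draws on 8 transgenic and 8 control animals, changed at 229 probe sets, 100 up and 129 down, or 3.07%. For the A61 effect minus the A39 effect the count was 0 of 7453, or 0%, and the smallest adjusted p was 0.393. At an unadjusted p of 0.05 that difference counted 288 probe sets, 3.86%, where 372.65 are expected if no effect differs. Without A39 control 2 the counts were 19 in A61, 109 in A39, 238 in the mean effect and 0 in the difference. A39 control 4 and A61 control 4 mattered more to the counts than A39 control 2 did. Without A39 control 4, A39 had 85 and the mean effect 171. Without A61 control 4, A61 had 15, the mean effect 166 and the difference 1. Over all arrays left out singly, the counts ran from 7 to 31 in A61 and from 67 to 132 in A39. They ran from 157 to 274 in the mean effect and from 0 to 4 in the difference.

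Of the 19 probe sets called in A61, 14 were also called in A39, all in the same direction, 12 down and 2 up. These 14 were 73.7% of the A61 calls and 11.9% of the A39 calls. The named genes among them were Rgs8, Homer3, Calb1, Fam107b, Abcc8, Mybpc3, Washc2, Ywhah, Btbd3, Zdhhc14 and Marcks. Of the 118 A39 calls, 103 had the same sign in A61, and 76 of these had an unadjusted p below 0.05 there. Over all tested probe sets 63.4% had the same sign in both lines, and the log2 effects correlated across probe sets with Pearson's r = 0.38 and Spearman's rho = 0.38 (7453 probe sets, which are not independent replicates and share their arrays).

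**Figure D1:**
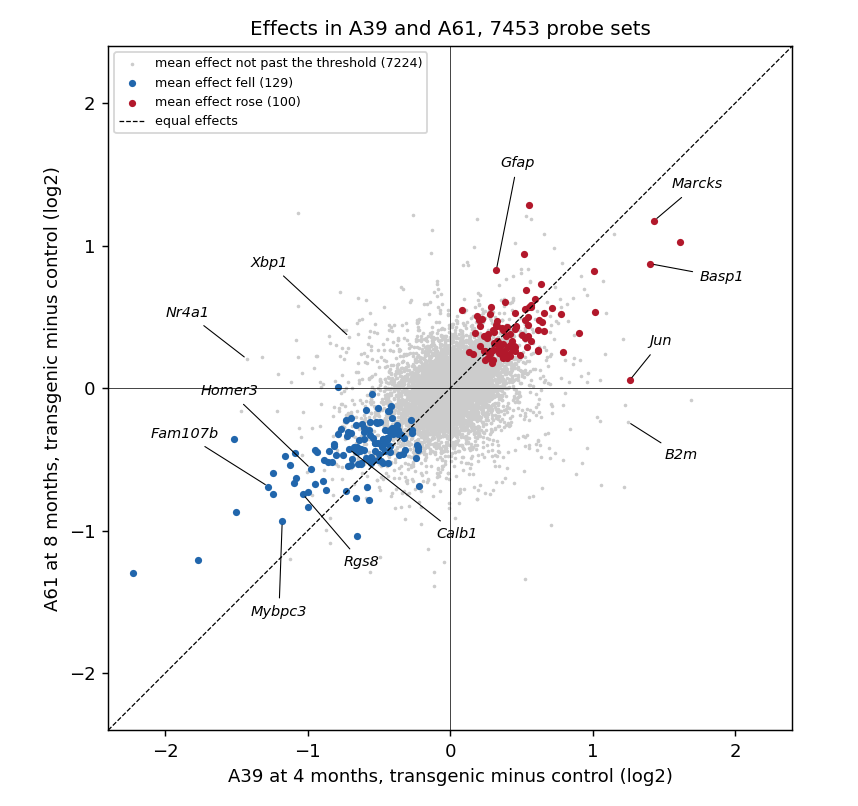
Log2 effect of the transgene (transgenic minus control) in A39 at 4 months on the x axis and in A61 at 8 months on the y axis, 1 point per probe set, with the 129 falls and 100 rises of the mean effect coloured and the dashed line marking equal effects. Most coloured falls lie on the side of the dashed line nearer 0 in A61, and Jun and B2m lie far from 0 in A39 and close to 0 in A61.

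Purkinje cell markers formed the clearest group. Of 30 listed markers, 20 were on the array and 17 passed the filter on low signal. In the mean effect 11 of the 17 fell and 0 rose, against 1.72% of all 5639 tested genes falling and 1.44% rising. A39 alone had 10 falls (1.12% of all genes) and A61 alone had 3 (0.231%). The median log2 effect of the 17 was -0.60 in A39 and -0.34 in A61, beside medians of 0.00 over all genes. The median was -0.55 in A39 without A39 control 2. In A61 it was -0.40 without A61 transgenic 3, the least affected array, and -0.27 without A61 transgenic 2. Over all alternative settings the median ran from -0.41 to -0.26 in A61 and from -0.66 to -0.54 in A39.

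Rgs8, a regulator of G protein signalling found in Purkinje cells, showed the groups clearly. Its signal was 6452, 6372, 6104 and 4949 in the A39 controls and 3190, 3067, 2788 and 2548 in the A39 transgenic animals. In the A61 controls it was 6629, 6382, 6731 and 6080, and in the A61 transgenic animals 4140, 3409, 4533 and 3418. Every transgenic animal lay below every control of either line, and the A61 transgenic animals all lay above the A39 ones. Rgs8 fell by 0.74 on the log2 scale in A61 (adjusted p = 4.33e-05, limma) and by 1.04 in A39 (adjusted p = 6.17e-09), to 59.7% and 48.8% of control. The difference was 0.29, with a 95% interval from -0.00 to 0.58. Of the 13 gene results called in A61, Rgs8 alone stayed past the threshold under every alternative setting tried.

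Homer3 encodes a scaffold that ties metabotropic glutamate receptors to calcium stores at Purkinje cell synapses. Its signal was 1476, 1533, 1858 and 1583 in A39 controls against 799, 842, 660 and 953 in A39 transgenic animals, and 1882, 1735, 1536 and 1635 in A61 controls against 1173, 942, 1268 and 1194 in A61 transgenic animals. Within each line the groups did not overlap. Homer3 fell by 0.57 in A61 (adjusted p = 0.0198) and by 0.98 in A39 (adjusted p = 7.21e-07, limma). The interval of the difference, 0.07 to 0.75, excluded 0 with an unadjusted p of 0.018, but the adjusted p was 0.999.

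Calb1, the calcium buffer calbindin, was tightly measured in all groups. Controls ran from 6765 to 7102 in A39 and from 6670 to 7078 in A61, while transgenic animals had 4497, 4493, 3633 and 4249 in A39 and 4921, 4908, 5172 and 5266 in A61. The lowest A61 animal was above the highest A39 animal. Calb1 fell by 0.43 in A61 (adjusted p = 0.0291, limma) and by 0.71 in A39 (adjusted p = 4.14e-06). The difference between lines was 0.28 (95% interval 0.02 to 0.55, adjusted p = 0.999). The A61 call for Calb1 was lost when most single A61 animals were left out, with the log2 value staying negative, whereas the A39 call held.

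Car8, which inhibits the binding of IP3 to its receptor, stood at 7359, 8801, 8045 and 11710 in A39 controls, 4620, 5811, 4075 and 3445 in A39 transgenic animals, 8587, 10310, 8097 and 11040 in A61 controls and 6138, 6040, 5606 and 4999 in A61 transgenic animals. Again neither line's groups overlapped. Car8 fell in A39 (log2 -1.00, adjusted p = 0.00403, limma) and in the mean effect (-0.87, adjusted p = 0.000186). In A61 the log2 value was -0.73 with an adjusted p of 0.139.

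The remaining markers called in the mean effect were Inpp5a (-0.61), which breaks down IP3, the endosomal protein Nsg1 (-0.61), Pcp2 (-0.53), a Purkinje cell modulator of G proteins, the calcium pump Atp2a3 (-0.53), the phosphatase inhibitor Ppp1r17 (-0.48), the glutamate transporter Slc1a6 (-0.38) and the calcium buffer Pvalb (-0.37). Pcp2 overlapped between groups in both lines, with A39 transgenic 3 at 2230 beside 1516 to 1618 in the other 3. Pvalb and Ppp1r17 were no longer called in A39 without A39 control 2, with log2 values of -0.45 and -0.55, and both remained called in the mean effect. Slc1a6 lost its mean-effect call without any of several single arrays. Dimmer probe sets of Pvalb (-0.77), Nsg1 (-0.67), Pcp2 (-0.63), Inpp5a (-0.51) and Ppp1r17 (-0.50) were called in the mean effect. A dimmer probe set of Atp2a3 had -0.39 in the mean effect and was not called. The 6 markers not called were Lhx1 (-0.27), Rora (-0.26), Cacna1a (-0.10), Cacna1g (-0.33), En1 (-0.18) and Ebf1 (0.29), among them transcription factors and calcium channel subunits.

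Each array's Purkinje score, the mean log2 level of the 17 markers minus the mean of the line's controls, put these genes on 1 scale. The A39 transgenic animals scored -0.51, -0.47, -0.62 and -0.61 (mean -0.55 ± 0.07, SD, n = 4). The A61 transgenic animals scored -0.35, -0.40, -0.16 and -0.41 (mean -0.33 ± 0.12, SD, n = 4). Controls stayed between -0.08 and 0.08. Transgenic and control animals did not overlap, nor did the transgenic animals of the lines, and A61 transgenic 3 lay nearest to the controls.

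**Figure D2:**
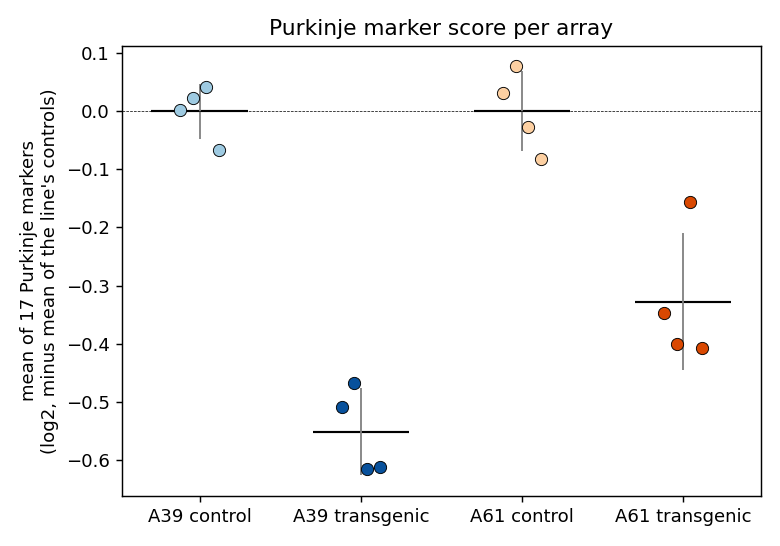
Mean log2 level of 17 Purkinje cell markers per array, minus the mean of the line's own controls, for the 4 arrays of each group, with the group mean (bar) and SD (line). All A39 transgenic arrays lie between -0.62 and -0.47, below all A61 transgenic arrays, which lie between -0.41 and -0.16.

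For 14 of the 17 markers the A61 effect minus the A39 effect was positive, beside 2839 of all 5639 genes. The median of that difference was 0.27 beside 0.00 over all genes. For 15 of the 17 the effect was further from 0 in A39, beside 3097 of all 5639 genes. A dimmer probe set of Ppp1r17 had a difference of -0.06. Those of Pcp2, Pvalb, Nsg1, Inpp5a and Atp2a3 had 0.18, 0.24, 0.31, 0.41 and 0.61. Unadjusted p below 0.05 was reached by 3 markers, Homer3, Inpp5a and Calb1, where 2.04% of all genes reached it in the upward direction. None passed after adjustment. The median difference ranged from 0.24 to 0.33 over the alternative settings. A39 animals were the younger ones, and age, line and scan day cannot be told apart in this ordering.

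**Figure D3:**
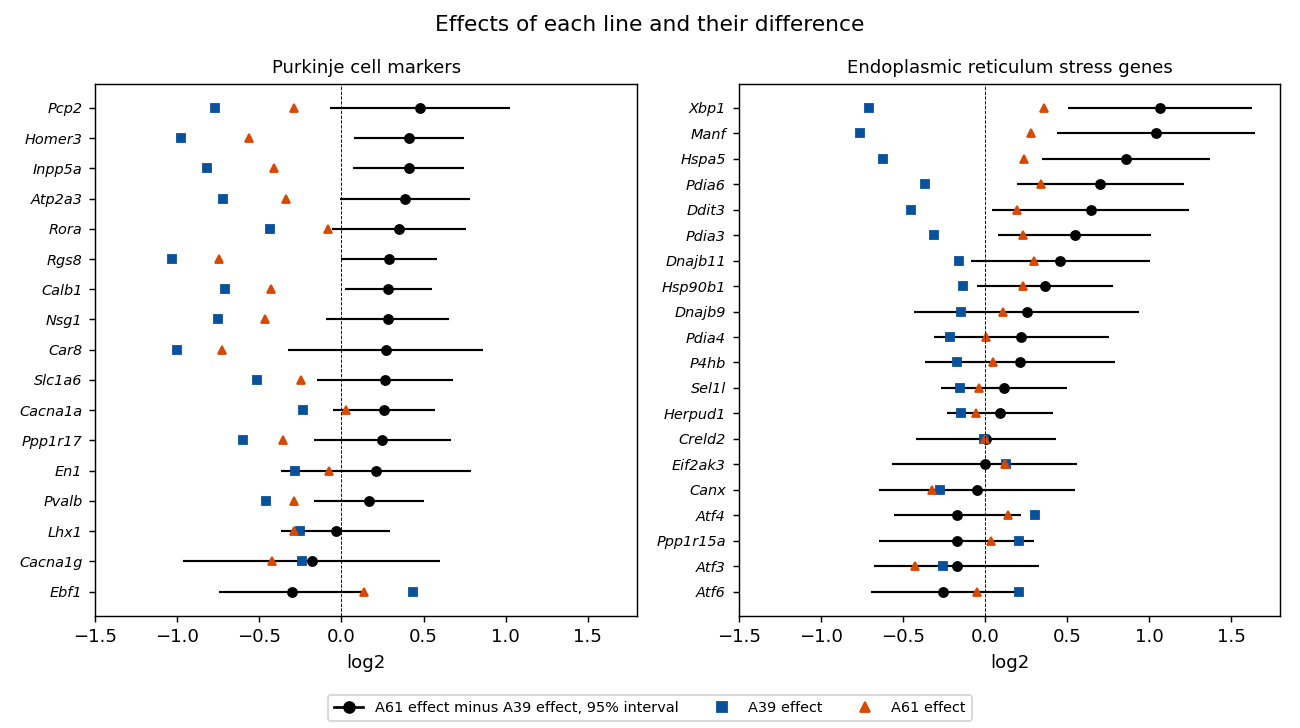
Log2 effect of each line (squares A39, triangles A61) and the A61 effect minus the A39 effect with its 95% interval (circles and lines), for 17 Purkinje cell markers and 20 endoplasmic reticulum stress genes. The difference is positive for 14 of the 17 markers and for 14 of the 20 stress genes, beside 2839 of all 5639 genes.

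Outside the marker list, Fam107b was the gene with the smallest p in the mean effect. Its signal was 2344, 2076, 2381 and 2174 in A39 controls, 913, 1001, 884 and 863 in A39 transgenic animals, 1881, 2120, 1951 and 2359 in A61 controls and 1271, 1078, 1337 and 1445 in A61 transgenic animals. Each line's groups were apart, and all A61 transgenic animals were above all A39 ones. Fam107b fell by 0.69 in A61 (adjusted p = 4.33e-05, limma) and by 1.28 in A39 (adjusted p = 4.64e-12), to 62.0% and 41.3% of control. Its difference of 0.59 (95% interval 0.31 to 0.86) had the smallest unadjusted p of all probe sets, 9.87e-05, and an adjusted p of 0.393. Levels in the transgenic animals also differed between lines by 0.47 (adjusted p = 0.0318, limma), a comparison in which age and scan day differ too.

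Some shared falls, those of Abcc8 and Zdhhc14, were about as large in A61 as in A39. Abcc8, the sulfonylurea receptor that forms ATP-sensitive potassium channels, had signals of 511, 525, 482 and 467 in A39 controls and 391, 342, 292 and 282 in A39 transgenic animals. In A61 the controls had 527, 543, 498 and 605 and the transgenic animals 310, 327, 378 and 304. No transgenic animal reached the level of a control in its line. Abcc8 fell by 0.69 in A61 (adjusted p = 0.00345) and by 0.59 in A39 (adjusted p = 0.00628, limma), with a difference of -0.10 (95% interval -0.47 to 0.26). Zdhhc14, of the enzyme family that attaches palmitate to proteins, fell by 0.51 in each line, and its difference of 0.00 had an interval from -0.32 to 0.32. Mybpc3, a myosin-binding protein best known from heart, fell by 0.94 in A61 and by more, 1.18, in A39. In A61 the adjusted p was 0.0313 for Zdhhc14 and 0.0431 for Mybpc3 (limma). Those A61 calls were lost in 12 (Zdhhc14) and 18 (Mybpc3) of 31 alternative settings. A61 transgenic 3 had a Mybpc3 signal of 748 where the other 3 had 378 to 382, and A61 control 4 had 593 where the other 3 had 987 to 1017.

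Washc2 belongs to a complex that builds actin on endosomes, Ywhah is a 14-3-3 adaptor protein, and Btbd3 is known in mouse cortex for orienting dendrites. Their log2 effects in A61 and A39 were -0.50 and -0.89 (Washc2), -0.45 and -0.66 (Ywhah) and -0.43 and -0.63 (Btbd3), called in both. For all 3 genes no transgenic animal overlapped a control of its line. These genes were named because they were called in both lines, so such separation describes their values and adds no support. The share of all tested probe sets without overlap was not counted, here or for the other genes. The Washc2 difference of 0.38 had an interval from 0.08 to 0.68 and an adjusted p of 0.999. The A61 calls of these 3 genes were each lost when some single arrays were left out. Ywhah was among those lost without A39 control 2, at an adjusted p of 0.0501.

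Marcks, a membrane-bound substrate of protein kinase C that organises actin, rose most surely. Its signal was 574, 818, 755 and 563 in A39 controls and 2135, 1611, 1745 and 1885 in A39 transgenic animals. In A61 it was 757, 917, 540 and 514 in controls and 1407, 1988, 1233 and 1541 in transgenic animals. Every transgenic animal of both lines lay above every control. Marcks rose by 1.17 in A61 (adjusted p = 0.000794) and by 1.43 in A39 (adjusted p = 8.12e-06, limma), to 226% and 269% of control, and the difference of -0.26 had an interval from -0.81 to 0.30. Of 21 tested growth cone and plasticity proteins, 4 rose in the mean effect and 0 fell, where 1.44% of all genes rose and 1.72% fell: Marcks, Ncam1 (0.44), an adhesion molecule, and the actin-binding thymosins Tmsb10 (0.51) and Tmsb4x (0.32). A dimmer probe set of Ncam1 had 0.03 and was not called. The list's median was 0.16. Basp1, a Marcks-like protein of growth cones, rose in 1 of its probe sets (1.14, adjusted p = 1.35e-05, limma) and was not called in the brighter one (0.16).

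**Figure D4:**
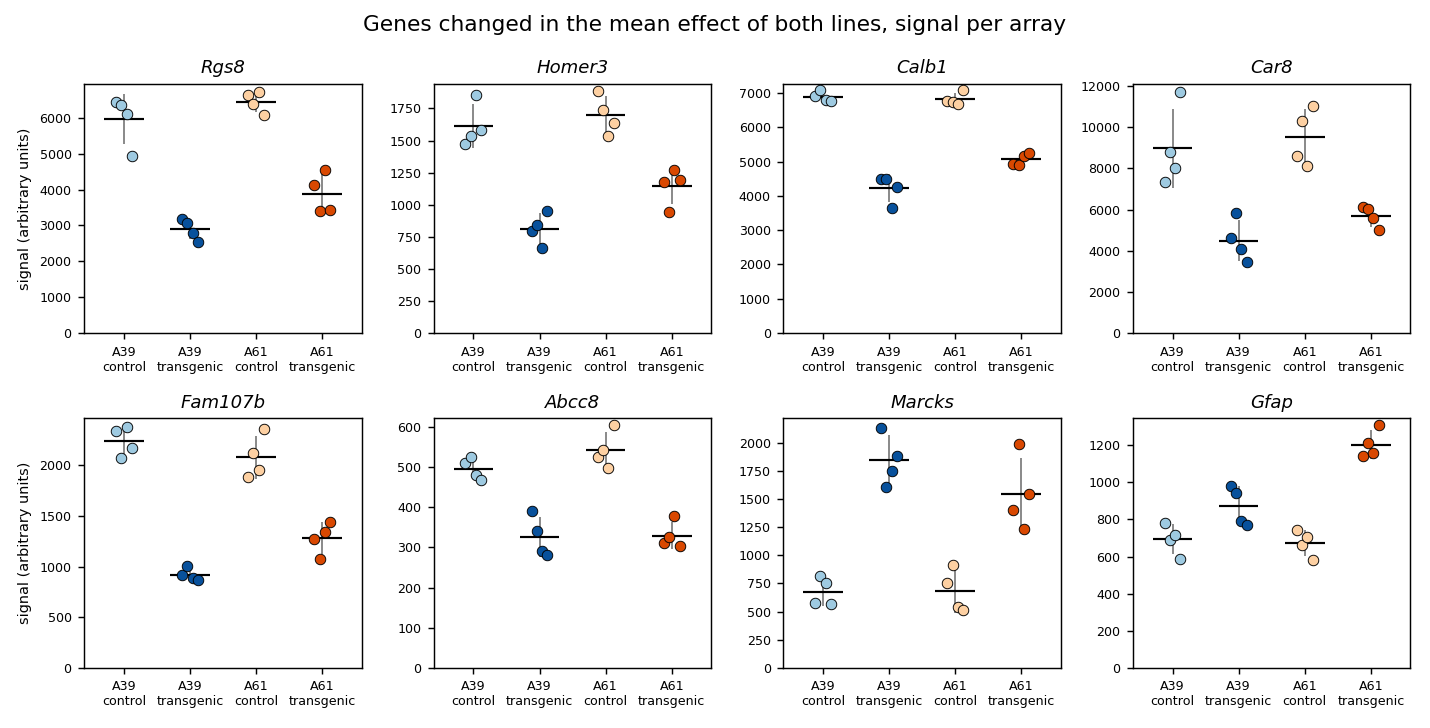
Signal per array (linear scale, arbitrary units) for 8 genes changed in the mean effect of both lines, in the 4 groups of 4 arrays, with the group mean (bar) and SD (line). Rgs8, Homer3, Calb1 and Fam107b are lower in transgenic than in control animals of both lines and lowest in A39, Abcc8 is about equally low in both, and Gfap is highest in A61.

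Gfap, the filament protein of astrocytes that rises when they react to injury, was called in A61 and not in A39 in its brighter probe set. There its signal was 781, 687, 719 and 589 in A39 controls and 982, 945, 794 and 770 in A39 transgenic animals, which overlap. In A61 the controls had 742, 660, 706 and 583 and the transgenic animals 1140, 1211, 1156 and 1309, with no overlap. Gfap rose by 0.83 in A61 (adjusted p = 0.00153, limma), and the A39 value of 0.32 had an adjusted p of 0.354. The difference of 0.50 (95% interval 0.09 to 0.91) had an unadjusted p of 0.018 and an adjusted p of 0.999, so the lines were not shown to differ. The dimmer probe set of Gfap had 0.88 in A61, 0.78 in A39 and a difference of 0.09, with none of its values called. In A39 at 10 months, in other animals, the value was 0.94. Among the other 18 tested markers of Bergmann glia and astrocytes, Aldoc, a glycolytic enzyme that bands of Purkinje cells also express, fell in the mean effect (-0.55) and 17 were not called. The median of the 19 was -0.04.

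Lists of other cell types also held calls in the mean effect, to be read against 1.44% of all genes rising and 1.72% falling. The microglia list had 2 rises among 11 genes, the complement gene C1qa (0.50) and the receptor adaptor Tyrobp (0.73), with a median of 0.25. Tyrobp had signals of 140 to 175 in A39 controls, 221 to 243 in A39 transgenic animals, 86 to 247 in A61 controls and 259 to 421 in A61 transgenic animals. No Tyrobp value of a transgenic animal overlapped those of its controls. Oligodendrocyte and myelin genes had 4 falls among 14, Mobp (-0.36), Car2 (-0.46), Mal (-0.37) and Cldn11 (-0.48), with medians of -0.19 in A61 and -0.30 in A39. The brightest probe set of Mobp was no longer called without A39 control 2 (adjusted p = 0.0501, limma). Its dimmer probe sets had -0.54, -0.36 and -0.58 in the mean effect, each called with all arrays. Interneuron and GABA synthesis genes had 3 falls among 8, namely Gad1 (-0.52), which makes GABA, the receptor Kit (-0.34) and the peptide Cck (-0.79), with medians of -0.36 and -0.35. Purkinje cells also express Gad1. Granule cell markers had 1 rise, the calcium buffer Calb2 (0.59), and 2 falls, Neurod1 (-0.46) and Cbln1 (-0.29), among 14, with a median of -0.07. Cbln1 was not called without A39 control 2 (-0.27, adjusted p = 0.0501, limma).

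Calcium signalling genes had 7 falls and 1 rise among 35 in the mean effect, beside 1.72% and 1.44% of all genes. The falls included Calb1, Inpp5a and Atp2a3, already counted as Purkinje markers, and the rise was Calb2, already counted in the granule cell list. Atp2a2, the pump that fills calcium stores, had signals of 2940 to 4234 in A39 controls and 1938 to 2338 in A39 transgenic animals, and of 3658 to 4397 in A61 controls and 2407 to 3343 in A61 transgenic animals. The groups did not overlap in either line. Atp2a2 fell in the mean effect by 0.64 (adjusted p = 5.03e-05, limma), with -0.47 in A61 and -0.80 in A39. Kcnma1, a potassium channel opened by calcium, was listed with ion channels and pumps instead. Its signal was 966, 1036, 892 and 1029 in A39 transgenic animals against 1416 to 1786 in controls. In A61 it was 1311, 1285, 1314 and 1238 in transgenic animals against 1521 to 1664 in controls. All A61 transgenic animals stood between the A39 transgenic animals and the controls. Kcnma1 fell in the mean effect by 0.50 (adjusted p = 4.39e-06, limma), and its difference of 0.38 had an unadjusted p of 0.0077 and an adjusted p of 0.987.

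Further genes with large changes of the mean effect were not called in A61. Falls included 3 of the 4 probe sets of Col18a1, a basement membrane collagen (-1.49, -1.18 and -0.92, with -0.37 in the brightest, which was not called), the protease Klk6 (-0.99), the sterol oxidase Msmo1 (-0.92) and the EGR corepressor Nab2 (-0.88). Nab2 fell below its controls in every animal of both lines, with 386 to 466 against 743 to 1220 in A39 and 507 to 711 against 805 to 989 in A61. Rises included Psme1 (1.32), a proteasome activator subunit, Astn1 (0.92), a neuronal protein of glia-guided migration, Pag1 (0.68), Kcnk2 (0.64), a potassium channel, Sin3b (0.64), a corepressor, and Bach1 (0.61), a repressor of antioxidant genes. Psme1 was near the floor in A39 control 4 (20.7) and A61 control 4 (40.2), where the other controls had 230 to 448. Without either of those arrays its value was 0.96 or 0.98 and still passed. Mpdz rose in 1 probe set (0.92) and was -0.07 in the other. A dimmer probe set of Sin3b had 0.24 and was not called. Among 15 cholesterol synthesis genes 3 fell and 0 rose in the mean effect, Msmo1 included, beside 1.72% and 1.44% of all genes, and among 58 respiratory chain subunits 0 were called.

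The effects were also described over probe sets called in older animals of the A39 line. In A39 at 10 to 10.5 months (3 transgenic, 3 control), 141 probe sets were called, 95 down and 46 up, or 1.89%. None of those animals enters the A39 effect at 4 months or the A61 effect. Of the 141, 137 had the same sign in A39 at 4 months and 132 in A61 at 8 months. Along the direction of the 10-month call, the median log2 effect was 0.77 at 10 months, 0.52 in A39 at 4 months and 0.33 in A61. For 112 of the 141, or 79.4%, the A39 effect at 4 months exceeded the A61 effect in that direction. Sign agreement with the 10-month effect, and this share, were not counted over all tested probe sets. The 141 were chosen in the A39 line, which favours larger values in A39, and no set from other A61 animals was used. Of the 19 calls of A61, whose choice favours A61, 12 were further from 0 in A39. Over the 141 the gap lay in the falls, with medians of -0.60 in A39 and -0.35 in A61, and less in the rises, with 0.30 and 0.26. Across these 141 the effects of the lines correlated with r = 0.88, as a description of probe sets that share their arrays. Among the 229 calls of the mean effect itself, 171 (74.7%) were further from 0 in A39, beside 54.6% of all tested probe sets. That held for 110 of 129 falls and 61 of 100 rises.

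Against A39 at 10 months, the A61 effect at 8 months also counted 0 differences after adjustment, or 0%. At an unadjusted p of 0.05 there were 323 probe sets, 4.33%, and the smallest adjusted p was 0.281. For Rgs8 the A39 effect at 10 months was -1.33, for Homer3 -1.26, for Calb1 -0.97 and for Marcks 1.59, each further from 0 than in A61. These values share the A61 arrays with the comparison at 4 months.

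How much of a difference between lines could be present is given by the intervals. The 95% interval of the A61 effect minus the A39 effect lay inside ±1 log2 unit for 6079 of the 7453 probe sets (81.6%), and inside ±0.5 for 1938 (26%). Its median distance from centre to bound was 0.48. Differences of the size seen for Purkinje markers, a median of 0.27, therefore lay within the interval of a typical probe set. The absence of calls does not show that the lines act alike.

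Among the genes with the smallest p in the difference, B2m, which encodes the small invariant chain of MHC class I, also differed in level between the controls. Its signal was 968, 1055, 809 and 676 in A39 controls and 1913, 2101, 2265 and 2034 in A39 transgenic animals. In A61 it was 4485, 3731, 2898 and 1499 in controls and 3708, 2422, 1647 and 2549 in transgenic animals. All A39 transgenic animals were above their controls, while the A61 groups overlapped and every A61 array was above the A39 controls. B2m rose by 1.24 in A39 (adjusted p = 0.00302, limma) and was -0.24 in A61 (adjusted p = 0.881). The difference was -1.48 (95% interval -2.19 to -0.76, unadjusted p = 0.00016, adjusted p = 0.393). It passed without A61 control 4, the lowest of the A61 controls (-1.80, adjusted p = 0.0161). Between the control groups B2m was the only probe set of 7453 to differ, or 0.0134%, higher in A61 by 1.73 (adjusted p = 0.000223, limma). That call was lost in a fit of the 16 arrays alone, which called 0. Of 14 tested interferon and MHC class I genes, 12 had a negative difference, beside 2800 of all 5639 genes. The median difference of the list was -0.45. With the filter on low signal at the 60th percentile, 7 of these genes remained and the median was -0.20. Unadjusted p was below 0.05 for B2m and for Tap1 (-0.61), a peptide transporter, where 1.83% of all genes reached it downwards.

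Jun, an immediate early transcription factor, had 335, 297, 248 and 158 in A39 controls and 657, 521, 613 and 730 in A39 transgenic animals. In A61 it had 288, 268, 294 and 272 in controls and 254, 349, 316 and 258 in transgenic animals. Only the A39 transgenic animals stood apart. Jun rose by 1.26 in A39 (adjusted p = 0.000235, limma) and was 0.05 in A61. The difference of -1.20 (95% interval -1.81 to -0.60) had an adjusted p of 0.393. Its level was lower in A61 than in A39 transgenic animals by 1.05 (adjusted p = 0.0318, limma).

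Other immediate early genes went the opposite way in A39. Nr4a1, an orphan nuclear receptor induced by activity, had 466, 723, 388 and 770 in A39 controls, 132, 314, 230 and 160 in A39 transgenic animals, 173, 391, 537 and 466 in A61 controls and 427, 402, 502.5 and 362 in A61 transgenic animals. Nr4a1 fell in A39 (-1.43, adjusted p = 0.00403, limma) with no overlap, and was 0.20 in A61 with overlap. Per1, a clock gene that activity also induces, fell in A39 (-0.75, adjusted p = 0.0101, limma) and was 0.20 in A61. The differences of 1.63 for Nr4a1 and 0.95 for Per1 both had an adjusted p of 0.393. The list of 20 tested immediate early genes had 4 positive differences (Nr4a1, Nr4a2, Per1 and Dusp6) and 1 negative (Jun) at an unadjusted p of 0.05, against 2.04% and 1.83% of all genes. Its median effect was -0.34 in A39 and -0.07 in A61. Nr4a2 was called in A39 (-1.07) but not without A39 control 2 (-1.06, adjusted p = 0.0646).

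Of 20 tested genes of the endoplasmic reticulum stress response, 13 had values of opposite sign in the lines, beside 2054 of all 5639 genes. None passed the test. The unfolded protein response raises chaperones and folding enzymes when proteins misfold in the endoplasmic reticulum, partly through an element in their promoters that combines a CCAAT box with a CCACG motif. Of 27 listed genes, 24 were on the array and 20 passed the filter. In A61, A39, their mean and their difference 0 of the 20 were called, by limma with adjustment. At an unadjusted p of 0.05, 6 of the 20 had a positive difference and 0 a negative one, against 2.04% and 1.83% of all genes. They were Xbp1, Manf, Hspa5, Pdia6, Ddit3 and Pdia3. The median effect was 0.12 in A61 and -0.16 in A39, and the median difference was 0.22. It ran from 0.08 to 0.31 over the alternative settings, with 0.11 without A39 control 4.

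To show the element, promoters from RefSeq (GRCm38.p6, 250 bases before to 50 after the gene start, 5' to 3' on the gene's strand) were searched on both strands for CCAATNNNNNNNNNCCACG. It was found in 39 of 32851 promoters (0.119%) and at 37 of 27025 genes (0.137%). Promoters were matched for 18 of the 20 tested genes, and 5 held a match. The difference between lines was 0.86 for Hspa5, 0.70 for Pdia6, 0.36 for Hsp90b1, 0.01 for Creld2 and -0.05 for Canx. Dimmer probe sets of Pdia6 had differences of 0.47 and 0.14. Among the genes named above with an unadjusted p below 0.05, only Hspa5 and Pdia6 held a match. Xbp1 (1.07), Ddit3 (0.64) and Pdia3 (0.55) held none, and no promoter was matched for Manf. A link between the element and the differences was not tested. The promoters of Hspa5 (chr2:34771840-34772139, plus strand) and Pdia6 (chr12:17266339-17266638, plus strand), with 2 of the larger differences, and of Canx (chr11:50325624-50325923, minus strand), with a difference near 0, are shown to set the element side by side. Capitals mark the match, which starts 65, 98 and 145 bases before the gene start.
Hspa5: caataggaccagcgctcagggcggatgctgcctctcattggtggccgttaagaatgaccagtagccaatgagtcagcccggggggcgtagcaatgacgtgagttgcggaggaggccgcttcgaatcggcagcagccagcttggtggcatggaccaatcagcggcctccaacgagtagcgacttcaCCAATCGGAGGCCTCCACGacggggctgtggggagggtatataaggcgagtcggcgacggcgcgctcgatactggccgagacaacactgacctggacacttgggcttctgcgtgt
Pdia6: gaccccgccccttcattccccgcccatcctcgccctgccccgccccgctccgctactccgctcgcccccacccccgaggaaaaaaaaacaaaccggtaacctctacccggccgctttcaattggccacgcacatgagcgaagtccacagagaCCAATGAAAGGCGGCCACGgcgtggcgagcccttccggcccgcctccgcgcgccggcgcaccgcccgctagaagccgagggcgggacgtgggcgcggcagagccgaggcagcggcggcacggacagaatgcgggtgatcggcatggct
Canx: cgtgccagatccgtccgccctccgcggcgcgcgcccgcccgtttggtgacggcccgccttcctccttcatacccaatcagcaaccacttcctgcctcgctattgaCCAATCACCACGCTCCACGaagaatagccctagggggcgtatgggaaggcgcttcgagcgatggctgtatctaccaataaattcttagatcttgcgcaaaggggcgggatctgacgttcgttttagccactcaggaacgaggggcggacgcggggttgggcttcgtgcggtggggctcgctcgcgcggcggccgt

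Hspa5, the chaperone BiP, a standard readout of the response, had 2648, 2616, 3671 and 3141 in A39 controls and 2153, 1998, 1931 and 1682 in A39 transgenic animals. In A61 it had 3004, 2543, 2934 and 2603 in controls and 4231, 2236, 2712 and 4395 in transgenic animals. All A39 transgenic animals lay below their controls. A61 transgenic 1 and 4 lay above all controls of both lines, and A61 transgenic 2 and 3 lay within or below the range of theirs. The log2 effect was 0.24 in A61 (adjusted p = 0.78) and -0.62 in A39 (adjusted p = 0.0667, limma), with a difference of 0.86 (95% interval 0.35 to 1.37, unadjusted p = 0.00159, adjusted p = 0.712).

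Xbp1, a transcription factor of the response, showed the same arrays apart. Its signal was 1210, 1164, 1608 and 2140 in A39 controls, 763, 987, 870 and 1010 in A39 transgenic animals, 911, 1004, 1184 and 1624 in A61 controls and 1948, 1067, 978 and 2363 in A61 transgenic animals. Its difference was 1.07 (95% interval 0.51 to 1.62, adjusted p = 0.393). Manf, a secreted factor of the same response, had 1437, 658, 724 and 1598 in A61 transgenic animals and 545, 645, 646 and 554 in A39 transgenic animals, against 730 to 1024 and 748 to 1226 in the controls. Its difference was 1.04 (95% interval 0.44 to 1.64, adjusted p = 0.646). Pdia6 and Pdia3, enzymes that form disulfide bonds, were likewise higher in A61 transgenic 1 and 4 than in the other A61 arrays, at 715 and 645 for Pdia6 and 1795 and 1688 for Pdia3, while A39 control 4 had 754 and 1724. Without A61 transgenic 1 the differences were 0.94 for Xbp1, 0.74 for Hspa5 and 0.88 for Manf, and without A61 transgenic 4 they were 0.84, 0.72 and 0.83. Xbp1 passed in A39 without A39 control 2 (-0.82, adjusted p = 0.0311). The stress scores of A61 transgenic 1 and 4 were 0.21 and 0.30, and those of A61 transgenic 2 and 3 were -0.08 and -0.08. A39 control 4 also scored 0.21. Other heat shock proteins and chaperones, cytosolic and mitochondrial, had a median difference of 0.04 over 30 genes.

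**Figure D5:**
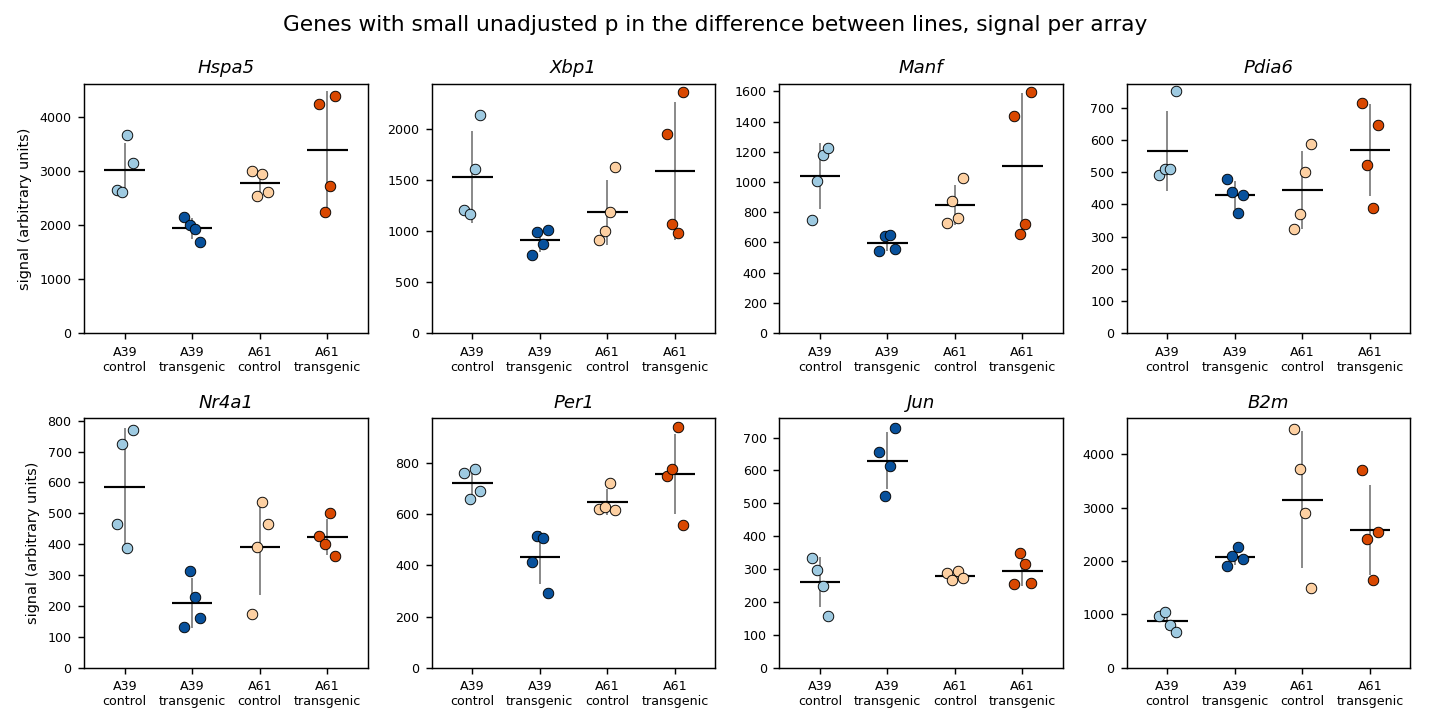
Signal per array (linear scale, arbitrary units) for 8 genes with a small unadjusted p in the difference between lines, in the 4 groups of 4 arrays, with the group mean (bar) and SD (line). Hspa5, Xbp1, Manf and Pdia6 are lowered in the A39 transgenic arrays and split into higher and lower pairs in the A61 transgenic arrays, while Jun is raised in A39 alone and B2m is higher in the A61 than in the A39 controls.

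Of the other genes with the smallest p, Cfp, a complement factor, fell in A39 (-0.79, adjusted p = 0.000618, limma) and was 0.01 in A61. Its mean effect of -0.39 was the only 1 of the 229 calls whose sign differed between the lines. Crhr1, the receptor of corticotropin-releasing hormone, fell in A39 (-0.81, adjusted p = 0.00353) and was 0.05 in A61. Cirbp, an RNA-binding protein induced by cold, rose in A39 (0.71, adjusted p = 0.0107, limma) and was -0.17 in A61. Dynlrb1, a light chain of the dynein motor, fell in A61 (-0.77, adjusted p = 0.0431, limma), where 3 transgenic animals had 1010, 883 and 943 and A61 transgenic 3 had 2031, within the control range of 1887 to 2086. Its difference of -0.96 passed without A61 transgenic 3 (-1.24), and its call in A61 was lost without any of several other arrays. A dimmer probe set of Dynlrb1 had -0.09 in A61 and a difference of -0.17. Acads had a difference of -1.34 in 1 probe set and -0.02 in a brighter one.

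Ctf1, the cytokine cardiotrophin, did not pass, though every transgenic animal lay on the opposite side of its controls in the lines. Its signal was 163, 204, 174 and 192 in A39 controls and 245, 237, 222 and 229 in A39 transgenic animals. In A61 it was 168, 178, 278 and 248 in controls and 126, 89.1, 148.5 and 161 in transgenic animals. The Ctf1 values rank above all controls in A39 and below all controls in A61. The difference was -0.98 with an unadjusted p of 0.000925 and an adjusted p of 0.597 (limma).

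Ribosomal and respiratory chain genes had small differences of 1 sign in most members. Of 25 tested ribosomal protein genes, 23 had a negative difference, beside 2800 of all 5639 genes, with median effects of 0.06 in A61 and 0.29 in A39 and a median difference of -0.20. Rps10 (-0.42) and Rpsa (-0.33) had an unadjusted p below 0.05, where 1.83% of all genes reached it downwards. Rpsa rose in A39 (0.38, adjusted p = 0.0253, limma). Of 58 respiratory chain subunits, 53 had a negative difference, with medians of -0.03 in A61, 0.16 in A39 and -0.15 for the difference. Unadjusted p was below 0.05 for 4 of them, Cox6c (-0.31) and Cox5b (-0.37) included. Without A39 control 4 the median differences were -0.12 for the ribosomal and -0.09 for the respiratory genes. On each array the ribosomal score ran from 0.14 to 0.28 in A39 transgenic, -0.09 to 0.10 in A39 control, -0.01 to 0.05 in A61 transgenic and -0.10 to 0.11 in A61 control animals. A39 transgenic animals alone lay outside their controls.

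Choroid plexus tissue, which can stay attached to a dissected cerebellum, varied between arrays of all groups. The scores of its 8 tested markers ran from -0.68 to 0.64 in A39 controls, -0.56 to 0.94 in A39 transgenic animals, -0.66 to 0.33 in A61 controls and -1.30 to 0.35 in A61 transgenic animals. Ttr, its defining transport protein, had signals from 150 in A61 transgenic 3 to 3617 in A39 transgenic 4. The median difference of this list was -0.46, and 0 of 8 genes were called in either line, the mean effect or the difference. Its part in the other differences was not tested.

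Levels in the transgenic animals of the lines differed at 7 probe sets, or 0.0939%, all named and all given here. The calls depended on the fit: 1 remained with the 16 arrays alone and 0 with no filter on low signal, and the count was 0 without A39 transgenic 1, A39 transgenic 4 or A61 transgenic 1. Besides Jun, Per1 (0.80), Dynlrb1 (-0.91) and Fam107b, these were Zbtb16 (1.45), a transcriptional repressor, the vessel tight junction gene Cldn5 (-0.73) and the glucose transporter Slc2a1 (0.72). Zbtb16 had 453, 243, 236 and 321 in A61 transgenic and 92.7, 113, 87 and 104 in A39 transgenic animals, and 246, 157, 215 and 237 in A61 control and 144, 151, 154 and 205 in A39 control animals. The transgenic animals of the lines did not overlap, while the controls did. Its difference between effects was 1.10 with an adjusted p of 0.999. Age, scan day and sex differ between these groups as well, and cannot be told apart from the line.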

How the data were processed

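Cerebellar RNA of 48 mice, 1 per array by the labels, was measured on MG-U74Av2 arrays in 14 groups of 5 lines, and 16 arrays in 4 groups of 4 entered the comparisons. The deposited values are intensities, 1 linear signal per probe set, made by the authors with MAS5 per the submitters' processing notes (version not given in the sources used here). Each array already had a 2% trimmed mean of 500.2 to 500.3.

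Arrays were rescaled to 1 trimmed mean, 66 control probe sets were set aside, and log2 was taken after adding a pseudocount of 18.7, the 10th percentile of the values, so that folds of dim genes are understated. Of 12488 probe sets, 10855 had 1 symbol in the platform's gene table, 396 several and 1237 none, and 10839 symbols were matched through gene identifiers to RefSeq. The filter kept 7453 probe sets whose mean signal reached the 40th percentile, of which 6715 had 1 symbol, for 5639 genes. R 4.3.3 and limma 3.58.1 (lmFit, eBayes) estimated 1 mean per group across the 48 arrays (34 residual and 3.73 prior degrees of freedom). All 7 comparisons were two-sided with Benjamini-Hochberg adjustment over all tested probe sets and a threshold of 0.05. Besides these 7, the A39 effect at 10 months was tested in the same way, which gave its 141 calls. All adjusted p values are from limma.

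Named genes were, for the difference and the mean effect, up to 12 largest rises and falls past the threshold with 1 symbol and no sex linkage, or the 8 smallest p where under 5 passed, together with genes called in both lines, up to 4 members of each of 26 lists by smallest p, all tested Purkinje markers and Htt. Levels of members called in single-line or level comparisons were added after their values were seen. Lists used the brightest probe set of a gene, and 25 of 466 tested list genes were in over 1 list. The members and lists were chosen with earlier results of these data known. Replicate numbers were not taken to pair animals, and pairing was neither shown nor excluded. Same-numbered transgenic and control deviations correlated between -0.01 and 0.15, over 0.1 in 4 of 8 pairs. The fits were tested on simulated data. Alternatives were another scaling, pseudocount, filter, prior, covariate or block, 16 arrays alone, narrower control choices and each array left out.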

Additional observations from a re-analysis of the deposited data

Results flagged for a closer look

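Within each group of 4 arrays, 416 sets of 4 values were tested for an array far from the others, and 31 were found, where chance gives about 1 in 20. The rule compares the gap to the nearest array with the whole range (Dixon). Most of the 31 were in A39 transgenic 4 (5 values) and in A39 control 4, A61 control 4 and A61 transgenic 3 (4 each).

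In the A39 controls, A39 control 4 stood apart with signals of 20.7 for Psme1, 1924 for Atp2a3, 754 for Pdia6 and 2206 for Ppp1r17. A39 control 2 was low for 1 probe set of Htt at 1759, A39 control 3 was low for Tmsb4x at 3784, and A39 control 1 had an interferon and MHC class I score of 0.14. In the A61 controls, A61 control 4 had 805 for Nab2, 593 for Mybpc3, 9588 for Ywhah and 311 for 1 probe set of Col18a1. A61 control 1 had 176 for Zfp771 and A61 control 3 had 721 for Per1.

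In the A39 transgenic animals, A39 transgenic 4 had 286 for Cldn11, 156 for Acads, 36 for Msmo1, 1770 for Neurod1 and 13970 for Cox6c. A39 transgenic 3 had 243.5 for Tyrobp and 2230 for Pcp2, A39 transgenic 2 had 2958 for Ncam1, and A39 transgenic 1 had 30.7 for that Col18a1 probe set and 46.4 for Klk6. In the A61 transgenic animals, A61 transgenic 3 had 843 for Zdhhc14, 748 for Mybpc3, 2031 for Dynlrb1 and 722 for C1qa. A61 transgenic 2 had 1815 for Rpsa, 556 for Mal and a ribosomal score of -0.0082, and A61 transgenic 4 had 412 for Cldn11.

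Mybpc3 and Zdhhc14 in A61 transgenic 3 lay nearer to the A61 controls than the other 3 transgenic animals did, as did its Purkinje score of -0.16.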

How the results depend on the processing

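Each result was recomputed under 31 settings, 16 of them leaving out 1 array, except that A61 against A39 at 10 months and 26 results of dimmer genes had 30. Counts of calls below are after adjustment. The difference between lines, 0 in the report, ran from 0 to 4 with an array left out. Without A61 transgenic 2 the 4 were Cfp, Cirbp, Crhr1 and Fam107b. It was 1 with no filter on low signal. With arrays left out, A61 (19) ran from 7 to 31, A39 (118) from 67 to 132, the mean effect (229) from 157 to 274, controls (1) from 1 to 2, transgenic animals (7) from 0 to 19 and the difference to A39 at 10 months (0) from 0 to 1.

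Fitting the 16 arrays alone gave 7 in A61, 76 in A39, 151 in the mean effect, 0 between controls and 1 between transgenic animals. Scaling to 1 median gave 7, 55, 150 and, between transgenic animals, 3. No filter gave 12 in A61 and 0 between transgenic animals. Transgenic animals differed at 4 probe sets with quantile normalization, 13 with the filter at the 60th percentile, 11 with an intensity trend and robust prior, 3 with sex as a covariate and 79 with scan day as a random block (correlation -0.07). Controls differed at 2 with scan day as a fixed or random block or chip lot as a block. Quantile normalization gave 2 for the difference to A39 at 10 months. Using only the A61 control titled A61 gave 2 for the difference, 6 in A61, 61 in the mean effect, 7 between controls and 0 between transgenic animals. Using only animals that share the first part of an identifier gave 4 in A61, 86 in the mean effect, 3 between controls and 2 between transgenic animals. Both leave 1 A61 control, whose spread is then taken from the other groups. The causes were not tested.

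The replicate number as a block gave 11 in A61, 0 between controls and 1 between transgenic animals, and 4 of 8 animals correlated best with their own number. No gene value given changed its sign among those called. Of 54 gene results called in the mean effect 24 passed under every setting, as did 24 of 48 in A39 and 1 of 13 in A61, and 7 of 36 named in the difference passed under some setting. The list medians of the difference kept their sign for Purkinje, stress, interferon, respiratory and ribosomal genes, and ran from -0.02 to 0.37 for immediate early genes. With 4 arrays a group, differences between lines under about 0.5 log2 were often within the interval.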
